A study of Homo sapiens with 15 samples.

Results

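The interleukin 1 family and its receptors were followed through a dose series of the RNA-binding protein RBM47 in metastatic breast cancer cells. The 8 genes described were IL1A, IL1B, IL18 and IL33 (ligands), IL1R1, IL1RAP and IL1RL1 (receptor chains) and IL1RN (the receptor antagonist), out of 23368 genes in the count table. They were chosen by family name with their normalized counts in all 15 libraries already known. Their values, and the later calls of their dose slopes and untreated levels, are therefore a description, and no p-value is printed for them.

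RNA-seq of polyadenylated RNA was available from 3 clones, which were left untreated (0 ng/ml) or received doxycycline at 1, 2.5, 5 or 25 ng/ml, and each combination of clone and dose gave 1 library. All clones carried a FLAG-tagged transgene under a doxycycline-inducible retroviral promoter. WT6 and WT10 cells expressed wild type RBM47, and MUT3 cells expressed RBM47-I281fs, a frameshift mutant. The sample labels name MDA231, a triple negative breast cancer line, as the source of all clones, whereas the methods of the study derive WT10 and MUT3 from a brain metastatic derivative of that line and WT6 from CN34-BrM2, a brain metastatic line of another origin. Each clone grew from a single cell, so a difference between clones cannot be told apart from a difference between the cells that founded them, and a comparison of WT6 with the other clones may also compare cell lines. No combination of clone and dose was repeated.

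Interleukin 1α and interleukin 1β, the products of IL1A and IL1B, bind the receptor IL-1R1, which then recruits the accessory chain IL-1RAcP (IL1RAP) and signals through MyD88 and IRAK kinases to NF-κB. The receptor antagonist occupies IL-1R1 without recruiting the accessory chain, and ST2 (IL1RL1) is the receptor of interleukin 33. In carcinoma cells the pathway is known as a source of chemokines and other inflammatory mediators, and the mRNAs of IL1A and IL1B are short-lived, with AU-rich elements in their 3′UTRs.

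The AU-rich stretches of both 3′UTRs are shown because RBM47 is an RNA-binding protein and because IL1A and IL1B had the steepest dose slopes of the family. The pentamer ATTTA, the core of AU-rich elements, is in capitals, the sequences are written 5′ to 3′ as DNA, and each is the 30-base window of its 3′UTR that holds the most pentamers.
IL1A 3′UTR, chr2:113532001-113532030, minus strand, hg19: tATTTAtatatgtATTTAtaaatatATTTA
IL1B 3′UTR, chr2:113587580-113587609, minus strand, hg19: tgagcaaccgcttccctATTTATTTATTTA

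IL1A occupies positions 113531502 to 113542070 of chromosome 2 (hg19, minus strand), and its 3′UTR of 1142 bases holds 5 ATTTA pentamers, counted on the sense strand with overlaps allowed. Among the 1591 tested genes with a 3′UTR of 0.8 to 1.25 times that length, 20.2% held at least as many. IL1B lies in the same region, from 113587328 to 113594393 on the minus strand, and its 3′UTR of 610 bases holds 6 pentamers. At least 6 were held by 1.57% of the 1209 genes with a 3′UTR of like length. The IL1B 3′UTR also holds 2 copies of the longer element TTATTTATT, which 3.97% of the 3′UTRs of like length contain. The pentamer was not particular to the genes with steep slopes, since IL1RAP holds 15 in a 3′UTR of 2809 bases, IL1R1 holds 8 in 3115 bases and IL18 holds 0 in 336 bases. These matches are descriptions of the sequence, and binding at them was not measured here.

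IL1A and IL1B rose with dose in both wild type clones, and their promoters are shown with the matches to 3 motifs of inflammatory or general promoters in capitals. Both are RefSeq promoters (GRCh38.p14) from 250 bases before to 50 bases after the annotated start, written 5′ to 3′ in the direction of transcription. The motifs searched on both strands were the AP-1 site TGANTCA, the TATA sequence TATAAA and the NF-κB consensus, which 7.76%, 11.95% and 5.72% of 27305 promoters contain.
IL1A promoter, chr2:112784444-112784743, minus strand: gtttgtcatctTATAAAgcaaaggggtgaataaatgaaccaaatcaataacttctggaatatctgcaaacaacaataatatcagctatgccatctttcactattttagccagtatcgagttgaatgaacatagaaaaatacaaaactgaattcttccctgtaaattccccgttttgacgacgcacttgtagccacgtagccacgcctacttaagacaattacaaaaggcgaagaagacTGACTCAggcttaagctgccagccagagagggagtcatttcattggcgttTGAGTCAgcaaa
IL1B promoter, chr2:112836730-112837029, minus strand: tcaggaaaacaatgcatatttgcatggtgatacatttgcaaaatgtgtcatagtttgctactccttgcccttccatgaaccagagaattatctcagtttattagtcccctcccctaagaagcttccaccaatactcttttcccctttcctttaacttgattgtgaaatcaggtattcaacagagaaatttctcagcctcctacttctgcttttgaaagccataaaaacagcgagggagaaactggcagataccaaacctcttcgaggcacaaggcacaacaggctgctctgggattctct

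In the IL1A promoter the AP-1 letters occur at positions -12 to -6 and 38 to 44 from the start, and TATAAA at -239 to -234. RefSeq lists a second start of IL1A downstream, from which the same AP-1 letters lie at -105 to -99 and -55 to -49, with no TATAAA in its window. None of the 3 motifs occurs in the IL1B window, which says only that these letters are not in these 300 bases.

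The transgene responded to doxycycline in every clone, on unequal scales. The normalized count of RBM47 was 258 in untreated WT6 cells and 3137, 8094, 3966 and 10425 at 1, 2.5, 5 and 25 ng/ml, so the level at 5 ng/ml was below that at 2.5 ng/ml. In WT10 cells it was 168, 827, 2822, 8134 and 19877, and in MUT3 cells 73.8, 92.1, 336, 949 and 22084. At 1, 2.5 and 5 ng/ml MUT3 cells held less RBM47 mRNA than either wild type clone, and at 25 ng/ml they held more. The values, called normalized counts here, are reads after division by a size factor for library depth, and libraries held 14955172 to 44771871 reads assigned to genes. A count of 3 reads, taken as the one-sided limit that a count of 0 allows, was between 1.19 and 4.09 normalized counts.

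All 7 carcinoma markers (KRT8, KRT18, KRT19, KRT7, EPCAM, VIM and CD44) were present in every clone, at unequal levels. KRT7 differed most: its fitted untreated level was 8.59 log2 units higher in WT6 than in WT10, and 2.60 higher in WT10 than in MUT3. Of the 7 myeloid markers, which mark cells known to make interleukin 1, CD163 and FCGR3A stayed under 3 reads in every library and PTPRC was at most 6 reads. The summed level of the myeloid list was 56.3 to 98.4 normalized counts in WT6, 36.6 to 61.7 in WT10 and 35.8 to 58.7 in MUT3, most of it CD14 and CSF1R. The 2 fibroblast markers, COL1A1 and PDGFRB, summed to 184 to 274 in WT6, 282 to 517 in WT10 and 208 to 289 in MUT3.

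IL1A, a ligand that acts both inside the cell and after release, had the largest dose change of the family. In WT10 cells its normalized count was 95.2 without doxycycline and 143, 244, 831 and 3193 at 1, 2.5, 5 and 25 ng/ml. In WT6 cells it was 26.3, 50.4, 149, 283 and 496. In MUT3 cells it was 81.3, 104, 105, 138 and 196. The count was higher at each higher dose in all 3 clones, but the WT10 value at 2.5 ng/ml already lay above every MUT3 value. The ratio of 25 ng/ml to untreated was 33.5 in WT10 (95% interval of counting error 27.1 to 41.9) and 18.8 in WT6 (12.5 to 29.8), against 2.41 in MUT3 (1.81 to 3.25). These intervals cover counting error only, not the variation between cultures.

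IL1B, the secreted ligand that is cut from an inactive precursor, followed the same order of clones with smaller ratios. Its normalized count in WT10 cells was 54.1, 114, 117, 328 and 894 at the rising doses. In WT6 cells it was 28.5, 26.8, 43.5, 57.2 and 103, and in MUT3 cells 60.0, 124, 110, 84.5 and 125. In WT10 the main rise came at 5 and 25 ng/ml, whereas in MUT3 the untreated library was the lowest and the doses had no order. The ratio of 25 ng/ml to untreated was 16.5 in WT10 (12.4 to 22.5), 3.63 in WT6 (2.31 to 5.87) and 2.08 in MUT3 (1.47 to 2.97). The MUT3 library at 25 ng/ml had the highest RBM47 count of all, 22084, beside an IL1B count of 125, while WT10 at 25 ng/ml had 19877 beside 894. These RBM47 counts are of mRNA. The study reports low levels of the mutant protein, with none seen by Western blotting in non-clonal BrM2 cells. Like RBM47 counts therefore need not mean like protein levels.

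**Figure D1:**
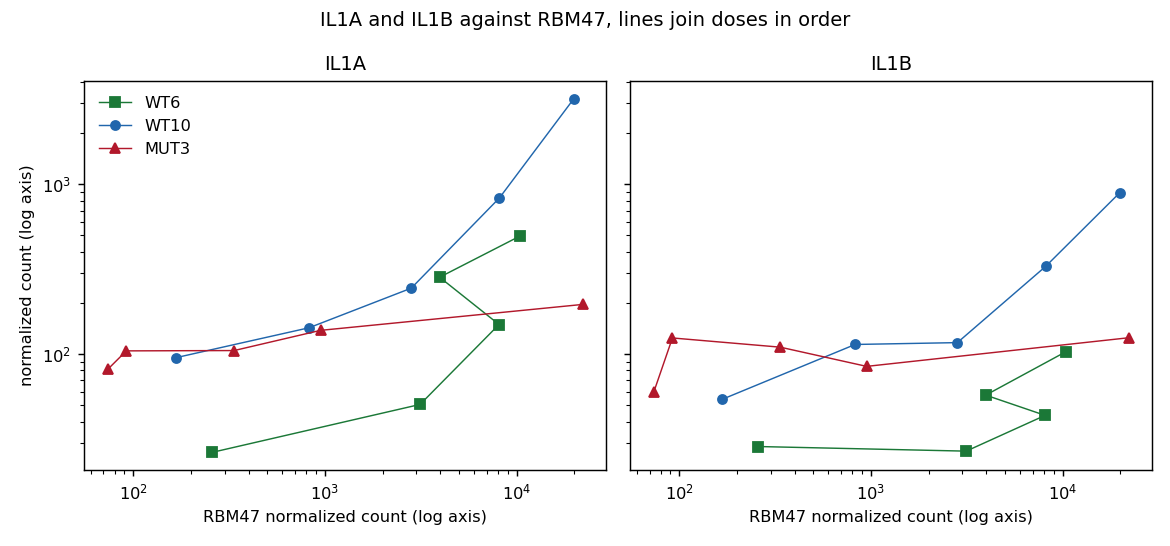
Normalized count of IL1A (left) and IL1B (right) against the normalized count of RBM47, both on log axes, with 1 point per library and lines joining the doses of a clone in order. WT10 reached 3193 for IL1A and 894 for IL1B at its highest RBM47 count, and MUT3 reached 196 and 125 at a similar one.

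IL18, a ligand that epithelial cells are known to hold as a precursor, differed more between clones than between doses. It stood at 2369, 2528, 2740, 4575 and 4385 normalized counts in WT6 at the rising doses. In WT10 it was 256, 222, 293, 284 and 484, and in MUT3 640, 590, 625, 657 and 637. The 3 clones did not overlap at any dose, with WT6 highest and WT10 lowest. The ratio of 25 ng/ml to untreated was 1.85 in WT6 (1.75 to 1.95) and 1.89 in WT10 (1.61 to 2.22), and in MUT3 it was 0.995 (0.883 to 1.12). The rise in WT10 lay in the library at 25 ng/ml, and that in WT6 in the libraries at 5 and 25 ng/ml. A gene on the opposite strand overlaps IL18 (chromosome 11, 112013976 to 112034819, minus strand), and reads of such partners cannot be told apart if the libraries did not keep the strand, which is not given in the sources used here.

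IL33, a ligand known as a nuclear alarmin (chromosome 9, 6215786 to 6257983, plus strand), had 0 reads in all 15 libraries. A count of 0 allows a level of up to 1.19 to 4.09 normalized counts, depending on the library, so expression below that limit was not detectable at this depth.

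IL1R1, the signalling receptor of interleukin 1α and β, differed by clone. Its normalized count was 197, 226, 227, 204 and 274 in WT6 at the rising doses, and 69.2, 72.3, 73.8, 105 and 72.5 in WT10. In MUT3 it was 33.8, 46.6, 32.6, 38.6 and 56.6. The ranges of the clones did not overlap, WT6 being highest and MUT3 lowest. Within a clone the ratio of 25 ng/ml to untreated was 1.39 in WT6 (1.14 to 1.70), 1.05 in WT10 (0.736 to 1.49) and 1.68 in MUT3 (1.04 to 2.77). IL1R1 occupies positions 102681004 to 102796334 of chromosome 2 (plus strand), and IL1R1-AS1 overlaps it on the opposite strand.

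IL1RAP, the accessory chain shared by the receptors of interleukin 1, 33 and 36 (chromosome 3, 190231840 to 190377539, plus strand), was 349, 345, 392, 297 and 233 normalized counts in WT6. In WT10 it was 252, 266, 307, 302 and 253, and in MUT3 121, 149, 137, 161 and 178. WT6 and WT10 overlapped, and every MUT3 library lay below every library of the other clones. The ratio of 25 ng/ml to untreated was 0.668 in WT6 (0.555 to 0.803), 1.00 in WT10 (0.835 to 1.21) and 1.47 in MUT3 (1.14 to 1.90).

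IL1RL1, the receptor of interleukin 33, was detected mainly in WT6 cells. It had 17.5, 20.6, 18.8, 23.2 and 58.5 normalized counts in WT6, from 16, 20, 22, 17 and 47 reads. Over all 5 libraries WT6 had 122 reads, WT10 had 2 and MUT3 had 3, a ratio of 85.6 to WT10 (23.2 to 715) and of 42.1 to MUT3 (14.1 to 207) after correction for depth. Within WT6 the library at 25 ng/ml was 3.34 times the untreated one (1.86 to 6.31). IL1RL1 occupies positions 102927962 to 102968497 of chromosome 2 (plus strand) and overlaps IL18R1 on the same strand, which had 1 to 8 reads per library in WT6.

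IL1RN, the antagonist (chromosome 2, 113856892 to 113891593, plus strand), was near the detection limit. It had 1 read over the 5 WT6 libraries, 11 over the WT10 libraries and 16 over the MUT3 libraries, with at most 5 in any library. In WT10 it had 2, 0, 1, 5 and 3 reads at the rising doses, and the counts were too low to show a dose change.

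**Figure D2:**
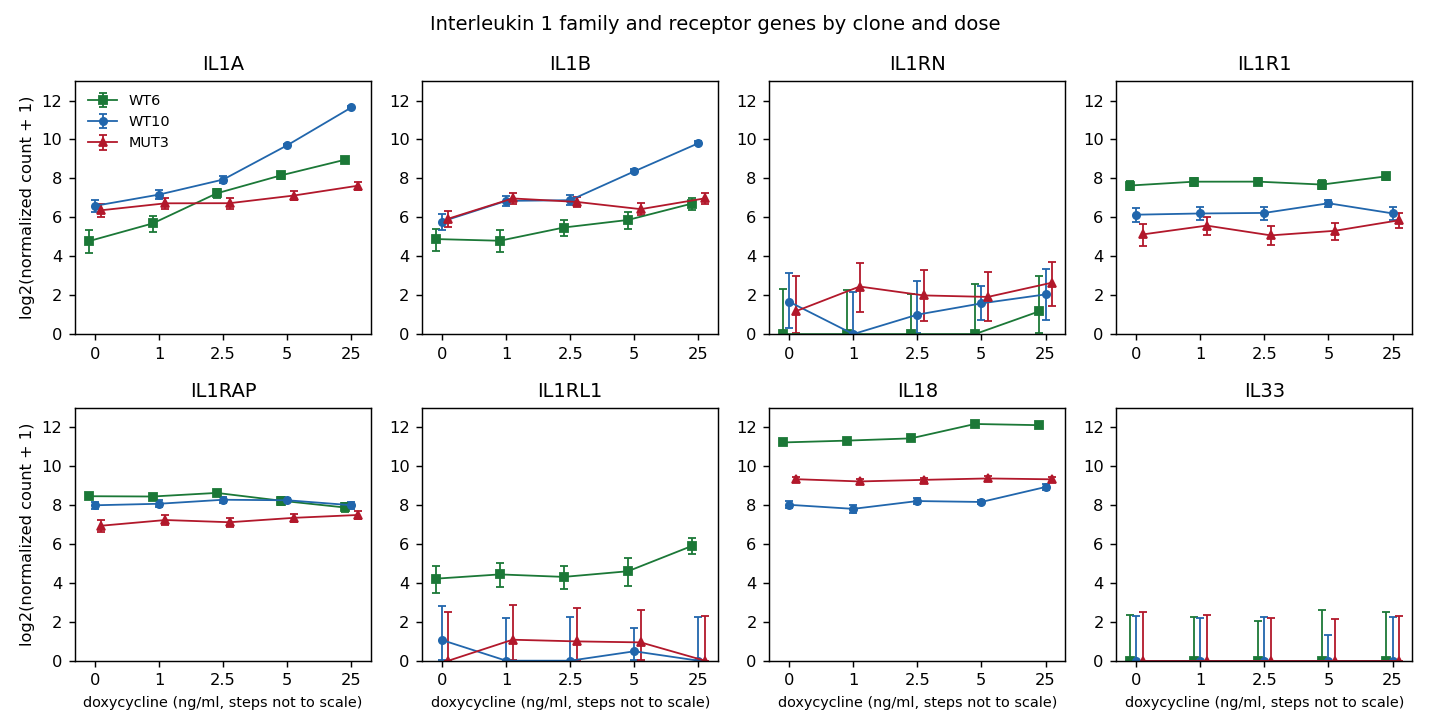
Level of each of the 8 genes, as log2(normalized count + 1), by doxycycline dose in WT6, WT10 and MUT3 cells, with 1 point per library and bars for the 95% Poisson interval of its count, whose upper end for 0 reads lies above the one-sided limit of 3 reads. IL1A and IL1B climb in WT10 and WT6, IL18 and IL1R1 are separated by clone, IL1RL1 is above 17 normalized counts in WT6 and near 0 elsewhere, and IL33 is at 0.

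The order of the genes changed with dose in WT10 cells when levels were divided by transcript length. Untreated WT10 cells had 230 normalized counts per kb for IL18, 53.1 for IL1RAP, 47.2 for IL1A, 35.9 for IL1B and 13.4 for IL1R1. At 25 ng/ml they had 1583 per kb for IL1A, 593 for IL1B and 434 for IL18, beside 53.3 for IL1RAP and 13.99 for IL1R1. IL1A and IL1B thus passed IL18, the ligand with the highest level in the untreated cells. In WT6 cells IL18 had the highest level throughout, at 2125 per kb untreated and 3932 at 25 ng/ml, against 13.04 and 246 for IL1A. MUT3 cells kept IL18 first at 25 ng/ml as well, with 571 per kb against 97.1 for IL1A.

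The dose slope of each gene was estimated by limma in one fit of all 15 libraries, as the change of log2(normalized count + 1) per unit of log2(dose + 1). Genes were tested if their normalized count averaged 10 or more in every clone, which held for 12644 genes, 5 of the 8 family genes among them. IL1RL1, IL1RN and IL33 were not tested. A gene was called at a Benjamini-Hochberg adjusted p under 0.05, over all genes tested.

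IL1A had a slope of 1.16 in WT10 (standard error 0.08), 0.79 in WT6 (0.10) and 0.27 in MUT3 (0.11). The slope of IL1B was 0.86 in WT10 (0.07), 0.43 in WT6 (0.10) and 0.14 in MUT3 (0.08). IL18 had nearly equal slopes in both wild type clones, 0.22 in WT6 (0.04) and 0.22 in WT10 (0.06), and 0.01 in MUT3 (0.05). IL1R1 had 0.08 in WT6 (0.04), 0.03 in WT10 (0.06) and 0.13 in MUT3 (0.08). IL1RAP had -0.13 in WT6 (0.04), 0.00 in WT10 (0.04) and 0.11 in MUT3 (0.05).

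**Figure D3:**
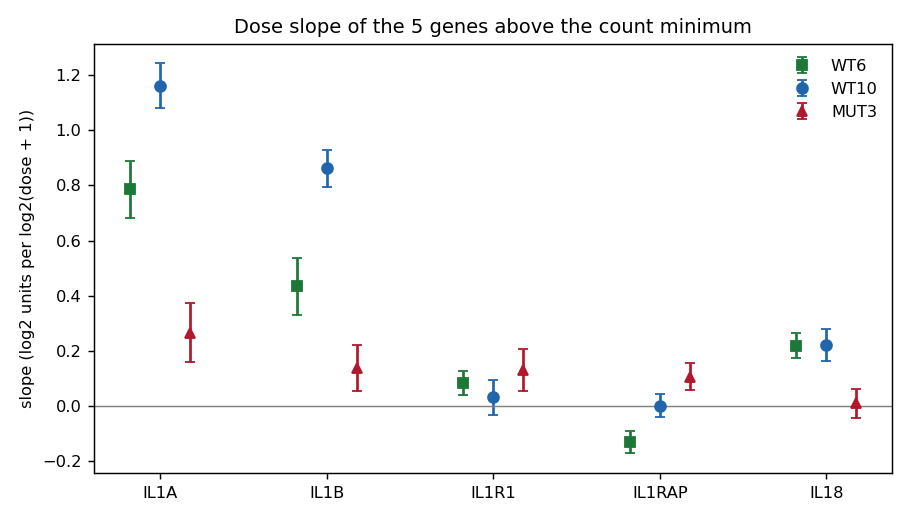
Dose slope of the 5 family genes above the count minimum, in log2 units per log2(dose + 1), with bars for 1 standard error, in WT6, WT10 and MUT3 cells. IL1A (1.16 in WT10) and IL1B (0.86 in WT10) have the steepest slopes, and MUT3 lies below both wild type clones for IL1A, IL1B and IL18.

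In WT6, 4 of the 5 genes were called (IL1A, IL1B and IL18 higher, IL1RAP lower), where 57.5% of all genes were called. In WT10, 3 were called (IL1A, IL1B and IL18, all higher), where 20.0% of all genes were called. None was called in MUT3, where limma called 0 of 12644 genes (0%) and 295 had an unadjusted p under 0.05. Their MUT3 slopes were still high among all genes tested, at percentile 99.86 for IL1A, 99.06 for IL1B, 98.96 for IL1R1 and 98.2 for IL1RAP. The exception was IL18, at percentile 59.4. Without the WT6 library at 25 ng/ml only IL1A and IL18 were called in WT6, and without the WT10 library at 25 ng/ml only IL1A in WT10, where its slopes were 1.39 (standard error 0.19) and 1.31 (0.19), and 4619 and 6 of all genes were called. No inference is drawn from these counts, since the genes were chosen with the same values known.

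For the difference of slopes between WT10 and MUT3, IL1A had 0.89 (standard error 0.13), IL1B 0.72 (0.11) and IL18 0.21 (0.08), and IL1A and IL1B were called, where 5.62% of all genes were. Neither was called when the WT10 or the MUT3 library at 25 ng/ml was left out, when 0 and 2 of all genes were called. Between WT6 and WT10 the slope of IL1A differed by -0.37 (0.13) and that of IL1B by -0.43 (0.12), and only IL1B was called, where 14.4% of all genes were. This call was lost when any one of 6 libraries was left out, WT6 or WT10 at 0, 1 or 25 ng/ml. With the RBM47 count in place of the dose, 0 of all genes tested were called in either difference, so none of the 5 was.

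In the untreated state, as fitted, IL1R1 was 1.12 log2 units higher in WT10 than in MUT3 (standard error 0.26), IL1RAP was 1.10 higher (0.17) and IL18 was 1.51 lower (difference -1.51, 0.21). These 3 genes were called, where 28.2% of all genes were called. WT6 compared with WT10 had 3.43 log2 units more IL18 (0.19), 1.41 more IL1R1 (0.20) and 0.48 more IL1RAP (0.15), and less IL1B (-1.13, 0.38). These 4 genes were called, where 59.6% of all genes were. For IL1A the fitted difference was -0.12 (0.40) between WT10 and MUT3 and -0.78 (0.43) between WT6 and WT10, neither of them called. The fitted level is the start of the dose line and can miss the untreated library. The measured untreated count of IL1A was 26.3 in WT6 (95% Poisson interval 16.9 to 39.1) and 95.2 in WT10 (76.4 to 117). As fitted, the clones thus differed in their receptor chains and IL18 before induction, and WT6 and WT10 also in IL1B.

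In WT6 cells the change from untreated moved with transcript length at 5 and 25 ng/ml, and hardly at the lower doses. The medians of the shortest and longest length quintiles were 0.03 and -0.05 log2 units at 1 ng/ml. They were -0.02 and -0.03 at 2.5 ng/ml, and 0.60 and -0.41 at 5 ng/ml. At 25 ng/ml the median gene of the shortest length quintile was 0.58 log2 units above the untreated level and that of the longest was -0.46, whereas in WT10 the same medians were 0.06 and -0.08 and in MUT3 -0.01 and 0.01. IL18 and IL1B are in the shortest quintile, IL1A in the next one, and IL1R1 and IL1RAP in the one below the longest. With the length and GC trends removed, the WT6 slope of IL18 was 0.07 (standard error 0.02) in place of 0.22, that of IL1RAP -0.06 (0.03) in place of -0.13, and that of IL1R1 0.16 (0.03) in place of 0.08. The slopes of IL1A and IL1B in WT6 were then 0.73 (0.09) and 0.32 (0.11). The part of fragment length or RNA quality in this trend was not tested. Without the WT6 libraries at 5 and 25 ng/ml, 1 of the 5 genes was called in WT6, IL1A with a slope of 1.46 (0.34), and IL1RAP had 0.091 (0.08). The number of all genes called in that setting is not given here.

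**Figure D4:**
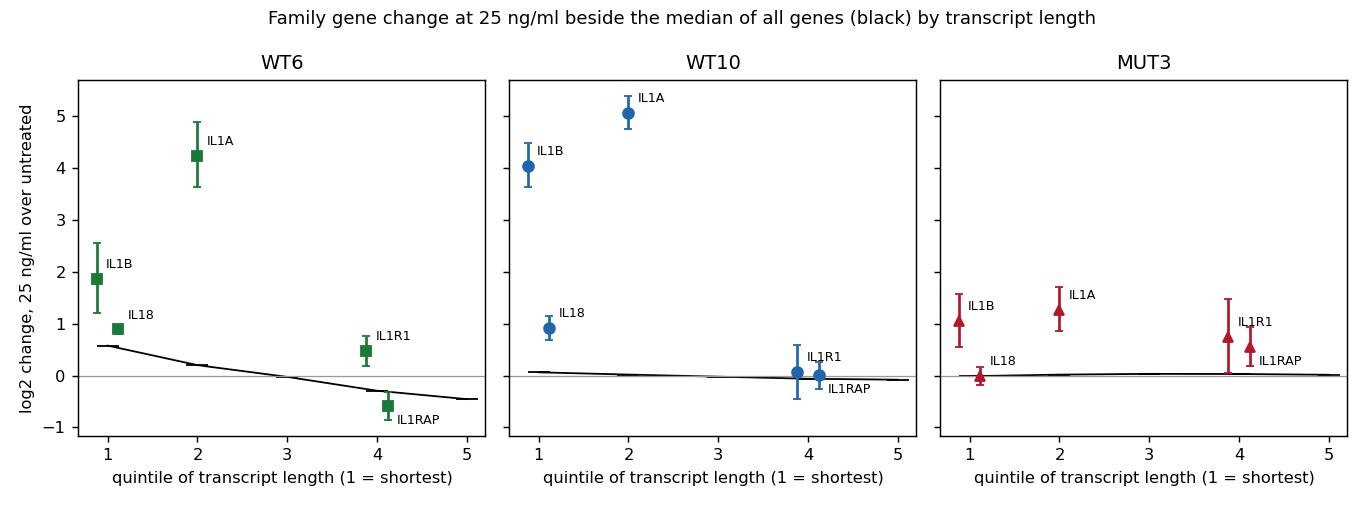
Change from untreated to 25 ng/ml, in log2 units, of 5 family genes (points, bars for the 95% interval of counting error) placed by their quintile of transcript length, with the median of all genes in each quintile (black line), in 3 panels for WT6, WT10 and MUT3. The black line runs from 0.58 to -0.46 in WT6 and stays near 0 in the other clones, and IL1A and IL1B lie above it in all 3.

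Genes known to respond to interleukin 1 were called more often than all genes in WT10, and about as often in WT6, where 57.5% of all genes were called. Of 22 genes named, 17 could be tested, and limma called 12 higher and 0 lower in WT10, 10 higher and 0 lower in WT6, and 0 in MUT3 (over all genes, 1284 were higher and 1243 lower in WT10, 20.0% in all, and 3690 and 3582 in WT6). The median slope of the list was 0.35 in WT10, 0.15 in WT6 and 0.07 in MUT3, where the median of all genes was 0.00, 0.01 and 0.00. For the difference between WT10 and MUT3, 9 were called higher and 0 lower, where 5.62% of all genes were called (336 higher and 375 lower). The median difference was 0.21 against 0.00 over all genes. As over all genes, the calls rested on the highest dose: without the WT10 library at 25 ng/ml, 1 gene of the list and 6 of all genes were called in WT10, and 0 in the difference from MUT3, over all genes too. Without the MUT3 library at 25 ng/ml, 0 of the list and 2 of all genes were called in the difference, and without the WT6 library at 25 ng/ml, 3 of the list and 4619 of all genes in WT6. With the length and GC trends removed, 10 genes of the list were called higher and 1 lower in WT6. The share of all genes called with that correction is not given here, so no inference is drawn from these counts. The list was written with earlier results for IL8 known.

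CXCL1, a chemokine that draws neutrophils, was 121, 146, 181, 397 and 1798 normalized counts in WT10 at the rising doses, and 54.8, 75.1, 78.4, 342 and 1041 in WT6. In MUT3 it was 251, 357, 297, 322 and 338. It rose at every dose in both wild type clones and had no order in MUT3. Its slope was 0.94 in WT10 (limma adjusted p = 1.01e-05) and 1.01 in WT6 (adjusted p = 4.68e-06). The slope in WT10 exceeded that in MUT3 by 0.88 (limma adjusted p = 0.00265). IL8, a chemokine of the same family, had slopes of 0.89 in WT10 and 0.75 in WT6, and the WT10 slope differed from that in MUT3 by 0.81. Earlier results for IL8 were known when the list was written, so no p-value is given for it. ICAM1, an adhesion molecule for leukocytes, had 0.67 in WT10 and 0.21 in WT6, and these differed by -0.46 (limma adjusted p = 0.00636). CXCL2, a further neutrophil chemokine, had 0.58 in WT10 and 0.36 in WT6. VCAM1, an adhesion molecule of endothelial cells, stayed under 3 reads in every library. Without the WT6 libraries at 5 and 25 ng/ml, 1 gene of the list was called in WT6, and the number over all genes is not given here.

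**Figure D5:**
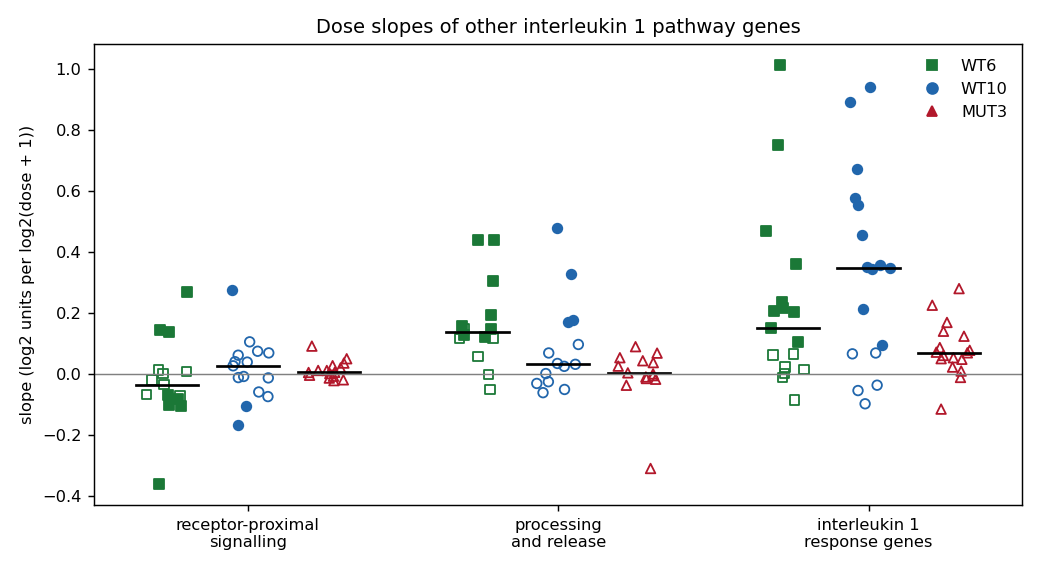
Dose slopes, in log2 units per log2(dose + 1), of the tested genes of 3 pathway lists in WT6, WT10 and MUT3 cells, 1 point per gene, filled where limma called the gene and open where not, with black bars for the list median. In the response list the median is 0.35 in WT10, 0.15 in WT6 and 0.07 in MUT3, and no filled response gene has a slope below 0.

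Of 18 genes that process and release the cytokines, 14 were tested, with 8 called higher and 0 lower in WT6, where 57.5% of all genes were called, 4 higher and 0 lower in WT10, where 20.0% were, and 0 in MUT3. The share called in WT6 was about that of all genes. The median slope was 0.14 in WT6 and 0.03 in WT10, against 0.01 and 0.00 over all genes. AIM2, a sensor of cytosolic DNA, had slopes of 0.44 in WT6 and 0.48 in WT10. These rested on 6 to 30 reads per library in WT6 and 9 to 55 in WT10, while MUT3 libraries held 90 to 157. S100A13, which takes part in the release of interleukin 1α, had 0.44 in WT6 (limma adjusted p = 9.24e-06) and was not called in WT10, and the slopes of the clones differed by 0.41 (limma adjusted p = 0.00716). NLRC4, an inflammasome sensor, had 0.33 in WT10 and -0.31 in MUT3, the latter not called and resting on 5 to 17 reads per library, and these differed by 0.64 (limma adjusted p = 0.0303). PYCARD, the inflammasome adaptor ASC, had 0.30 in WT6. CASP1, the protease that cuts the precursors of interleukin 1β and 18, was named after its values were seen, with slopes of 0.19 in WT6 and 0.17 in WT10. With the length and GC trends removed, the WT6 slope was 0.32 for AIM2, 0.11 for PYCARD, 0.28 for S100A13 and 0.12 for CASP1. CASP1 was then not called in WT10 (0.13). With that correction 5 of the list were called higher and 1 lower in WT6, and without the WT6 libraries at 5 and 25 ng/ml none was called. The shares of all genes called in these settings are not given here, so no inference is drawn from the counts. Without the WT10 library at 25 ng/ml none was called in WT10, and the call of NLRC4 against MUT3 was lost without the WT10 or the MUT3 library at 1 or 25 ng/ml. CASP5 and the neutrophil proteases ELANE, CTSG and PRTN3 stayed under 3 reads in every library.

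Of 16 receptor-proximal signalling genes, 15 were tested, with 3 called higher and 5 lower in WT6, where 57.5% of all genes were called, 1 higher and 2 lower in WT10, where 20.0% were, and 0 in MUT3. The list was thus called about as often as all genes, in both directions. IRAK2, a kinase of the receptor complex, had slopes of 0.27 in WT6 and 0.28 in WT10 (limma adjusted p = 0.000962 and 0.00165). In WT6 its normalized count was 196, 202, 208, 200 and 451 at the rising doses, so the rise there lay in the library at 25 ng/ml. MAP3K7, the kinase TAK1, was called lower in both wild type clones, with -0.36 in WT6 and -0.17 in WT10 (limma adjusted p = 3.95e-05 and 0.0182). Its normalized count was 862 in untreated WT6 cells and 265 at 25 ng/ml, 722 and 420 in WT10, and 860 and 857 in MUT3. TOLLIP, an inhibitor of the IRAK kinases, had 0.14 in WT6, and PELI3, a ubiquitin ligase of the pathway, 0.14. The rise of PELI3 in WT6 also lay in the library at 25 ng/ml, with 137, 146, 143, 138 and 216 normalized counts. With the length and GC trends removed, 6 genes were called higher and 3 lower in WT6, against 3 higher and 5 lower before. The share of all genes called with that correction is not given here, so no inference is drawn from this change. Without the WT10 library at 25 ng/ml none was called in WT10, and without the WT6 library at that dose 1 was called higher and 3 lower in WT6.

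Of the 14 other ligands, receptors and decoys of the family, 2 passed the count minimum in each clone. SIGIRR, an inhibitory receptor, had a slope of 0.20 in WT10 (limma adjusted p = 0.0263), with 127, 130, 111, 116 and 232 normalized counts at the rising doses, and was not called in WT6 or MUT3. The rise lay in the library at 25 ng/ml, without which SIGIRR was not called. IL18BP, the soluble decoy of interleukin 18, was not called in any clone. IL18RAP, IL36A and IL1F10 stayed under 3 reads in every library.

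Over the 15 libraries the genes most like IL1A on the log2 scale were IL8 (Pearson's r 0.976), ANKRD46 (0.954) and GABARAPL1 (0.940). Those most like IL1B were IFI44 (0.961), CHMP4C (0.937) and APOL6 (0.935). The points share clone, dose order and library, and the values describe likeness only. For IL18 and IL1R1 the 3 clones form separate groups of points, and for IL1RAP MUT3 stands apart from the other clones, so no pooled correlation is given.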

How the data were processed

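The authors mapped 75-base paired-end reads to hg19 with STAR, counted them with HTSeq 0.5.4 at default settings and normalized by DESeq. Strand and annotation are not given in the sources used here. The deposited signal, a read count over a size factor, came out as whole reads in 100% of values (tolerance 0.001). HTSeq tallies were left out, and reads on no feature were 56.5% to 59.6%.

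From these values, limma 3.58.1 (R 4.3.3) fitted, per clone, a line in log2(dose + 1) to log2(normalized count + 1) with vooma weights. Genes needed a mean of 10 per clone. The fitting script was checked beforehand on simulated counts, from which no printed value comes. Alternatives used edgeR 4.0.16, DESeq2 1.42.0, TMM scaling, a pseudocount of 8, other filters, no weights, dose ranks, the RBM47 count, length and GC correction by splines with 4 degrees of freedom, and libraries left out. The study's Pearson correlation with 5 libraries per clone was replaced by this fit. With no repeated condition, p-values measure the scatter of the libraries about the dose lines.

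The genes and pathway lists were chosen with earlier results of these data known. Named genes were all family genes, the 3 most alike by correlation and, per list, up to 4 called genes with the largest slopes in WT6 or WT10 and those under 3 reads throughout. Annotation came from GENCODE 44 on hg19, matched for 91.9% of 23368 genes, and promoters from RefSeq (7 of 8 family genes had one).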

Additional observations from a re-analysis of the deposited data

Results flagged for a closer look

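The dose slope of IL1A differed between WT10 and MUT3 by 0.89 log2 units per log2(dose + 1), estimated as a difference of slopes in limma. The slope of IL1B differed between the same clones by 0.72. Between WT6 and WT10 the slope of IL1B differed by -0.43, the WT6 slope being the lower one. Each clone is a single cell-derived line, so these differences also compare clones.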

How the results depend on the processing

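With the RBM47 count in place of the dose, 0 of 5 family genes were called in WT6, 0 in the difference between WT10 and MUT3, 0 in that between WT6 and WT10, and 2 in the untreated difference between WT6 and WT10. Over all genes, 2, 0, 0 and 4613 were called in the same comparisons. Without the 3 libraries at 25 ng/ml, 2 were called in WT6, 1 in WT10, 0 between WT10 and MUT3 and 0 between WT6 and WT10. Without the WT6 libraries at 5 and 25 ng/ml, an alternative chosen after seeing the data, 1 was called in WT6 and 0 between WT6 and WT10, and the WT6 slope of IL1RAP turned from -0.13 to 0.091. With the length and GC trends removed, 2 were called between WT6 and WT10. For the settings other than the RBM47 count, the numbers of all genes called in these comparisons are not given here. The counts are therefore not read as a result about the family genes. The cause of these changes was not tested.

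With each library left out in turn, the genes called ranged from 2 to 5 in WT6, 1 to 3 in WT10, 0 to 3 between WT10 and MUT3, 0 to 2 between WT6 and WT10 and 3 to 5 in the untreated difference between WT6 and WT10. The lowest counts came without WT6 at 25 ng/ml (2), without WT10 at 25 ng/ml (1) and, between WT10 and MUT3, without WT10 or MUT3 at 25 ng/ml (0). Calls over all genes moved with the library left out too, down to 6 in WT10 without its library at 25 ng/ml. These ranges are therefore not a result about the family genes. Of the slopes of the family genes under the alternatives, 370 moved by less than their spread, 34 moved by more and 1 reversed. Each clone had its own line, so leaving out a library of another clone moved a slope only through the weights. The tally includes such slopes and does not measure how stable the slopes were. No paired analysis was possible because each clone and dose has 1 library. Scaling by TMM shifted the median gene by at most 0.04 log2 units.

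Over all genes tested, the calls in WT6 ranged from 2 with the RBM47 count to 7888, those in WT10 from 6 without WT10 at 25 ng/ml to 4890, those in MUT3 from 0 to 14, and those between WT10 and MUT3 from 0 to 3042. Between WT6 and WT10 they ranged from 0 to 3709. In the untreated comparisons they ranged from 1837 to 5878 (WT10 and MUT3) and 4613 to 8797 (WT6 and WT10). IL1RN, with at most 5 reads per library, and IL33, with 0, limit what depth can show.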

Other observations

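Other ligands and receptors of the family, chosen after their values were seen, differed by clone. IL36B, a ligand of the interleukin 36 receptor, had 0, 0, 0, 7 and 36 reads in WT10 at 0, 1, 2.5, 5 and 25 ng/ml, 0 in every WT6 library and at most 2 in any MUT3 library. IL36RN, the antagonist of that receptor, had 0, 0, 1, 5 and 14 reads in WT10 and at most 1 in any other library. The WT10 library at 5 ng/ml was the deepest, and in normalized counts IL36B was 2.78 there and 37.3 at 25 ng/ml, while IL36RN was 1.99 and 14.5. IL1RL2, which codes for the ligand-binding chain of the same receptor, was 89.9, 91.6, 116, 105 and 163 normalized counts in WT6 and at most 9.33 in any library of WT10 or MUT3. The ligand and its receptor chain were therefore highest in different clones. IL1RAPL1, a neuronal relative of IL1RAP, was 38.3 to 58.4 normalized counts in WT10 and 44.5 to 57.9 in MUT3, against 0 to 8.53 in WT6. These genes were below the count minimum in at least 1 clone and were not tested.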
